A study of Bos taurus with 12 samples.

Results

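Intramuscular preadipocytes are the cells of muscle that can store fat between the fibres, the fat that graders score as marbling. The cells here came from the longissimus dorsi of newborn Qinchuan cattle. The comparison sets the 3 libraries taken 6 d after adipogenic induction against the 3 libraries of uninduced cells (0 d), 6 of the 12 libraries of the series, whose other days are 3 d and 9 d. All cells grew in medium with 15% fetal bovine serum, and induction was started at 90% confluence. The 0 d cells had no inducer. The 6 d cells had 48 h of dexamethasone (a synthetic glucocorticoid), 0.5 mM IBMX (a phosphodiesterase inhibitor, which raises cAMP) and insulin, followed by insulin alone. Dexamethasone and IBMX had thus been out of the medium for 4 days when the 6 d cells were collected, while insulin was still present. Day, hormones and time at confluence differ together between the groups, and their shares in a difference were not tested.

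In adipogenesis a confluent fibroblast-like cell receives hormonal cues, switches on a cascade of transcription factors and then builds the proteins of lipid uptake, synthesis and storage. Glucocorticoid and cAMP act early through the factors CEBPB and CEBPD, and PPARG and CEBPA hold the later programme. Along with it the cell rebuilds its surroundings, from a matrix of fibrillar collagens and fibronectin toward a basement membrane of laminin, nidogen and collagen IV.

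The deposited table gives FPKM, a read count divided by transcript length and library size, for every mRNA. Of these, 15402 with a mean of at least 0.1 FPKM over the 12 libraries were tested with limma on log2(FPKM + 0.1). A gene is called where the log2 fold change is over 1 either way at an adjusted p under 0.05. With 3 libraries a day the p-values measure only the spread between these libraries, and the labels do not say whether the libraries of a day came from separate animals. Correlations of log2 values were 0.9782 to 0.9832 within 0 d, 0.9822 to 0.9831 within 6 d and 0.9551 to 0.9601 between the days.

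At 6 d, 1749 mRNAs were called against 0 d (11.4% of those tested), of which 522 were higher (3.39%) and 1227 lower (7.97%). All 3 values of 1 day lay beyond all 3 of the other for 7371 mRNAs (47.9%), and for 1724 of the 1749 called. The balance leaned to falls, with a median of -0.15 on the log2 scale over the tested mRNAs. Rescaling the libraries by their median ratio moved this median by 0.13 to -0.02. It raised the share of calls that are higher from 29.8% to 38.3%. Every log2 value near 0 below is to be read against that shift. Large changes were of both kinds: 172 of the rises and 283 of the falls went past 2 on the log2 scale, and 82 rises and 114 falls belong to mRNAs with a mean of at least 100 FPKM on 1 of the 2 days.

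**Figure D1:**
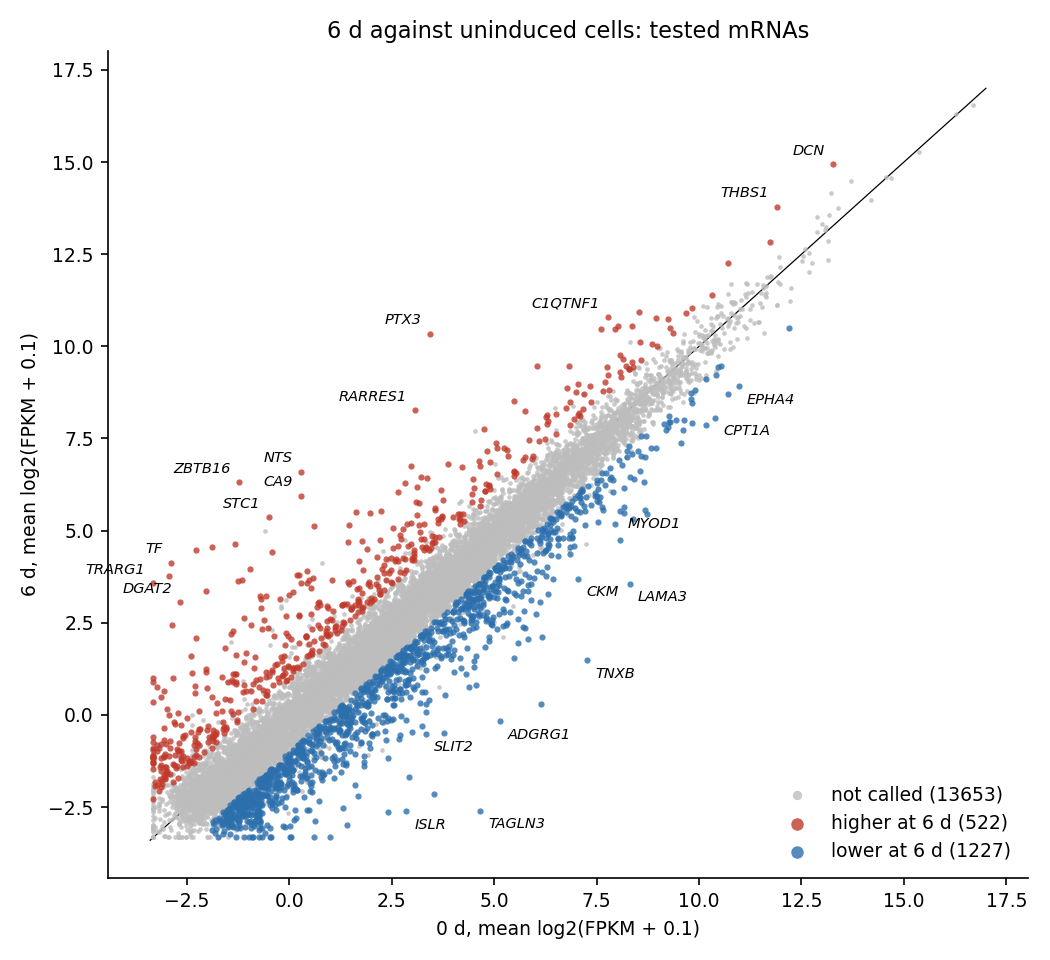
Mean FPKM of each tested mRNA on 0 d and 6 d (means of log2 values over 3 libraries a day). Called mRNAs are in colour, and the named ones are among the largest changes by fold or by FPKM.

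Markers of cell types were read first, to see what the libraries hold. Progenitor markers were the most abundant, with a sum of 13712, 13046 and 13898 FPKM at 0 d and 35027, 35665 and 36595 at 6 d, most of it DCN, the matrix proteoglycan decorin. Of 10 tested, 4 rose and 1 fell (against 3.39% and 7.97% of all tested mRNAs, the shares against which every count of a list below is to be read). PDGFRA, the receptor that marks fibro-adipogenic progenitors of muscle, read 168, 148 and 163 FPKM at 0 d and 164, 160.4 and 161 at 6 d (log2 fold change 0.02, limma adjusted p = 0.79), so the days overlap and it was not called. THY1, a surface antigen of stromal cells, read 32.6, 34 and 33.9 FPKM at 0 d and 92.9, 95.1 and 90.5 at 6 d and rose (log2 fold change 1.47, limma adjusted p = 4.28e-07), as did NT5E, the surface enzyme CD73 (log2 fold change 1.88, limma adjusted p = 2.45e-08), and LUM, the proteoglycan lumican (log2 fold change 1.69, limma adjusted p = 4.91e-08). CD34, an antigen of quiescent progenitors, was low on both days and fell from 0.64, 0.49 and 0.76 to 0, 0.03 and 0.03 FPKM (log2 fold change -2.6, limma adjusted p = 7.47e-06), a call lost with a pseudocount of 1 FPKM (log2 fold change -0.67, limma adjusted p = 6.98e-06). Of 11 tested markers of smooth muscle and pericytes 3 rose and 2 fell, and their sum was 2523, 2566 and 2724 FPKM at 0 d and 3402, 3633 and 3614 at 6 d, with ACTA2 the most abundant. Of 7 markers of cartilage and bone 2 rose and 1 fell. ALPL, the alkaline phosphatase of bone and stroma, rose from 0.68, 1.83 and 1.09 to 11.4, 14.9 and 9.51 FPKM (log2 fold change 3.29, limma adjusted p = 1.16e-05). Of 5 tendon markers 2 fell, with a sum of 1667, 1647 and 1788 FPKM at 0 d and 467, 408 and 455 at 6 d, most of it FMOD. Of 2 tested epithelial markers 2 fell and of 3 endothelial markers 1 fell, while those of immune and Schwann cells had 0 calls, and PTPRC, ITGAM and TYROBP of leukocytes were at 0 in all 6 libraries.

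Adipocyte markers were present at 6 d at low level. Of 12, 10 could be tested and 6 rose (against 3.39% of all tested), and their sum went from 11.2, 11.3 and 12 FPKM at 0 d to 42.9, 43.5 and 42 at 6 d. FABP4, the fatty acid binding protein of fat cells, made up most of the 6 d sum, with 3.36, 3.02 and 3.52 FPKM at 0 d and 24.5, 26.4 and 28.4 at 6 d. Its log2 fold change was 2.96, limma adjusted p = 7.43e-08, and all 3 libraries of 6 d were high and all 3 of 0 d low. ADIPOQ, the hormone adiponectin, read 0.01, 0.03 and 0.03 FPKM at 0 d and 1.64, 0.22 and 0.24 at 6 d. It was called at 2.22, limma adjusted p = 0.0258, yet 1 library of 6 d held most of the signal. The call was kept in only 2 of the 6 fits that each leave out 1 library, and without the first 6 d library its log2 fold change was 1.42, limma adjusted p = 0.0605. It was also lost with a pseudocount of 1 FPKM (0.63, limma adjusted p = 0.118) and in a fit of only the 6 libraries (2.22, limma adjusted p = 0.0578). CEBPA, a factor of mature adipocytes, read 0.08, 0.08 and 0.12 FPKM at 0 d and 0.06, 0.08 and 0.07 at 6 d, low and overlapping (log2 fold change -0.18, limma adjusted p = 0.362). PPARG and PLIN1 were not analysed here. By these markers the 6 d libraries are those of a stromal culture with a small adipocyte signal, not of mature fat cells, and the groups are named by their day below.

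**Figure D2:**
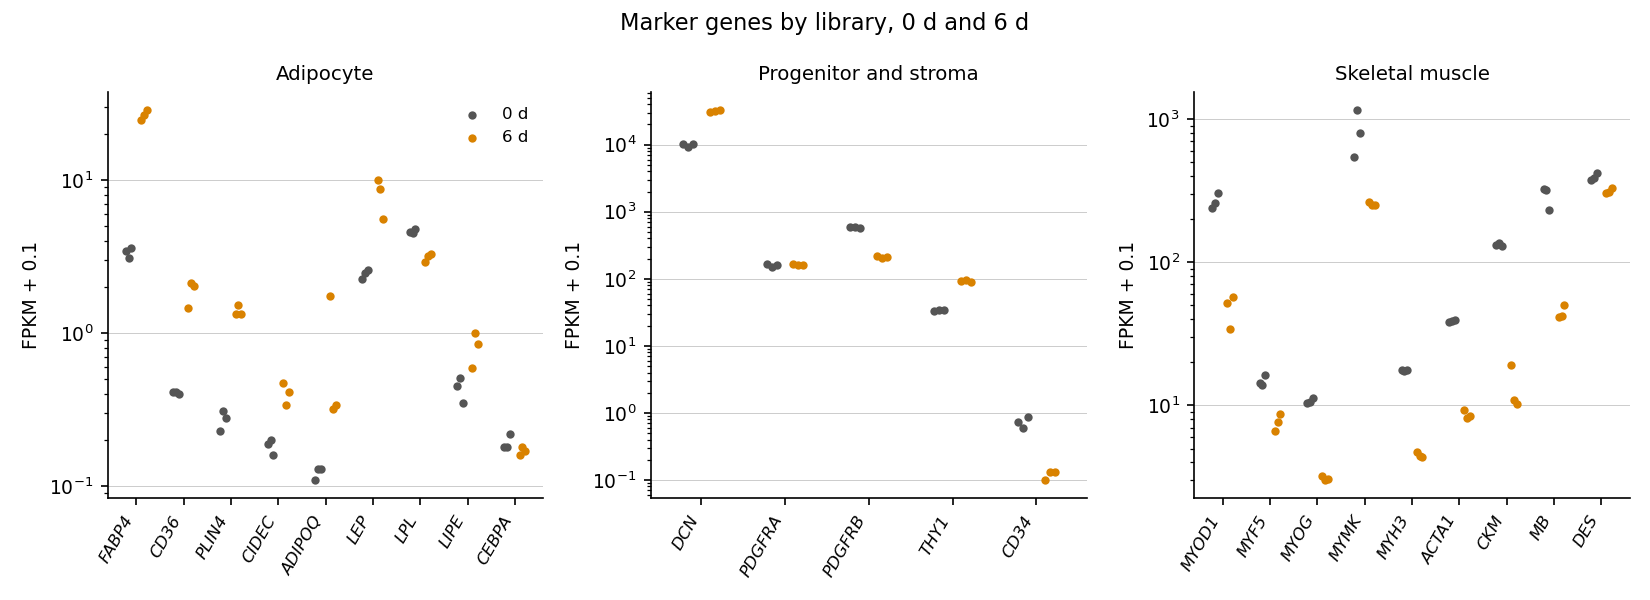
FPKM of marker genes of adipocytes, progenitors and skeletal muscle in each library of 0 d and 6 d. Each point is 1 library.

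Skeletal muscle markers had a sum of 1386, 2021 and 1758 FPKM at 0 d and 668, 633 and 681 at 6 d. Among the marker lists this was below the sum of smooth muscle and pericytes on both days. The order depends on the list, as the wider list of muscle genes read next summed to 3386, 3955 and 3765 FPKM at 0 d and 1056, 960 and 1053 at 6 d. At 0 d this lay above the smooth muscle and pericyte markers. Of 27 tested genes of myogenic factors, sarcomere and fusion, 23 fell (against 7.97% of all tested) and 0 rose, with a median log2 fold change of -1.80 (-1.67 after rescaling). MYOD1, the myogenic factor of activated myoblasts, read 239.8, 260.2 and 303 FPKM at 0 d and 51.9, 34 and 57.3 at 6 d. It fell with a log2 fold change of -2.51, limma adjusted p = 6.04e-06, and the 0 d libraries were all high. MYMK, the fusion protein myomaker, read 543, 1146 and 800.2 FPKM at 0 d and 261, 249 and 252 at 6 d. The fold for MYMK was -1.64, limma adjusted p = 0.000274, with 0 d spread widely but wholly above 6 d. CKM, the creatine kinase of muscle, read 132, 136 and 130.3 FPKM at 0 d and 19.2, 10.9 and 10.1 at 6 d, and MB, myoglobin, 322, 318 and 229.5 FPKM at 0 d and 41.1, 42.1 and 49.8 at 6 d. Their log2 fold changes were -3.36, limma adjusted p = 1.62e-05, and -2.69, limma adjusted p = 5.37e-05, in each with 0 d high and 6 d low. MYOG, the factor of terminal myogenesis, fell from 10.3, 10.5 and 11.2 to 3.1, 2.92 and 2.96 FPKM (log2 fold change -1.8, limma adjusted p = 3e-06). A joint row of titin (TTN) and a second locus, LOC112442545, lost more FPKM than any other called mRNA. It went from 4554, 7269.6 and 3127 to 1848, 1379 and 1218 FPKM (log2 fold change -1.69, limma adjusted p = 0.00153). How its reads divide between titin and the other locus is not known, and it is not counted among the 27. The cardiac-type actin ACTC1 fell from 909, 866 and 959 to 251, 231 and 251 FPKM (log2 fold change -1.9, limma adjusted p = 2.06e-08), although reads of the near-identical actins may be shared among them. DES, desmin, read 372, 388 and 419.9 FPKM at 0 d and 303, 310.2 and 329 at 6 d (log2 fold change -0.32, limma adjusted p = 0.00616). It was not called. In bulk libraries, fewer muscle-lineage cells and less muscle RNA per cell cannot be told apart.

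Called genes without overlap and with a gene symbol (no LOC name) were ranked by fold at the pseudocount used. The largest rise among them was that of ZBTB16, a zinc finger repressor and direct glucocorticoid target. It read 0.53, 0.25 and 0.25 FPKM at 0 d and 84.4, 93 and 63.3 at 6 d. This is a log2 fold change of 7.54 (95% interval 6.78 to 8.3, limma adjusted p = 1.34e-07), with 0 d near 0 and all of 6 d high. TF, the iron carrier transferrin, read 0, 0 and 0.15 FPKM at 0 d and 15.8, 17.8 and 18.9 at 6 d, a log2 fold change of 7.02, limma adjusted p = 9.62e-08. PTX3, a secreted pentraxin of innate immunity, stood out by combining fold and level. Its libraries read 9.4, 11.1 and 11.5 FPKM at 0 d and 1216, 1350.1 and 1336 at 6 d, a log2 fold change of 6.92 (95% interval 6.69 to 7.15, limma adjusted p = 3.16e-10), so that a minor mRNA of every 0 d library was among the abundant ones of every 6 d library. TRARG1, a regulator of GLUT4 traffic in fat cells, was listed at 0 in the 3 libraries of 0 d and read 11.4, 13.8 and 10.4 FPKM at 6 d (limma adjusted p = 7.68e-10). Further rises of more than 5 on the log2 scale included C7, a terminal complement component (6.76, limma adjusted p = 1.09e-06), SERPINA11, a serpin (6.45, limma adjusted p = 1.97e-06), NTS, the peptide neurotensin (6.31, limma adjusted p = 2.31e-09), STC1, the glycoprotein hormone stanniocalcin (5.86, limma adjusted p = 1.28e-06), and RARRES1, a retinoid-responsive inhibitor (5.2, limma adjusted p = 7.68e-10). NTS read 1.17, 0.91 and 1.33 FPKM at 0 d and 92.5, 94.9 and 104 at 6 d, and RARRES1 8.75, 7.35 and 8.9 FPKM at 0 d and 288, 306 and 332 at 6 d, while the 6 d libraries of STC1 were uneven at 18.9, 64.8 and 56.1 FPKM over 0.66, 0.57 and 0.60 at 0 d. In all of these genes every 6 d library lay above every 0 d library. The size of the rise of mRNAs near 0 at 0 d depends on the pseudocount: with 1 FPKM in place of 0.1 the log2 fold change was 4.14 for TF, 4.36 for C7 and 3.11 for DGAT2, an acyltransferase described below. The first place depends on it too, as with 1 FPKM the rise of PTX3 (6.8) was larger than that of ZBTB16 (5.91), and with 0.01 FPKM those of TRARG1 (10.21) and TF (9.44) were larger than that of ZBTB16 (7.9).

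Among the falls, TNXB, the matrix glycoprotein tenascin-X, read 159, 164 and 139.7 FPKM at 0 d and 2.35, 2.87 and 2.88 at 6 d. Its log2 fold change was -5.79 (95% interval -6.04 to -5.54, limma adjusted p = 7.68e-10), with all of 0 d high and all of 6 d low. ISLR, a secreted protein of mesenchymal stromal cells, went from 7.11, 6.43 and 7.77 to 0.10, 0.02 and 0.08 FPKM (log2 fold change -5.46, limma adjusted p = 2.95e-08, and -2.92 with a pseudocount of 1 FPKM). ADGRG1, an adhesion receptor that binds collagen III, fell from 39.6, 37.4 and 29.1 to 0.64, 1.93 and 0.36 FPKM (log2 fold change -5.31, limma adjusted p = 0.000192). THBD, the anticoagulant thrombomodulin, read 70.3, 69.3 and 70.6 FPKM at 0 d and 1.23, 0.97 and 1.22 at 6 d, which do not overlap. Its call (log2 fold change -5.83, limma adjusted p = 0.0293) had a wide error, with uneven 3 d libraries in the shared fit (28.2, 37 and 0 FPKM), and was kept in 0 of the 6 fits that leave out 1 library, where the limma adjusted p was 0.0661 to 0.0729 at log2 fold changes of -5.88 to -5.73. The fit of only the 6 libraries kept it. With a pseudocount of 0.01 FPKM it was lost too (-5.94, limma adjusted p = 0.0986). TAGLN3, a calponin-family protein of neurons, was called lower (log2 fold change -7.27, limma adjusted p = 0.00735) but its 0 d libraries were 76.3, 1.82 and 110.2 FPKM, 1 of them low, against 0.34, 0 and 0 at 6 d, and it came to -4.71 with a pseudocount of 1 FPKM. By FPKM the largest fall of a called mRNA after the joint row of titin and LOC112442545 was that of EPHA4, an ephrin receptor. EPHA4 read 2042, 1962 and 2006 FPKM at 0 d and 479.5, 481 and 484 at 6 d (log2 fold change -2.06, limma adjusted p = 7.68e-10), again with no overlap.

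Of the fat-cell functions, triglyceride synthesis gave 3 rises and 0 falls in 15 genes (against 3.39% and 7.97% of all tested). DGAT2, the enzyme of its last step, read 0.04, 0 and 0.18 FPKM at 0 d and 7.71, 8.97 and 8.13 at 6 d. The log2 fold change was 5.73 (95% interval 5.03 to 6.43, limma adjusted p = 4.88e-07), near absent in the 0 d libraries and low but present in all of 6 d. LPIN1, the phosphatidate phosphatase lipin, read 25.6, 31.2 and 26.9 FPKM at 0 d and 76.5, 78.3 and 76.3 at 6 d, and GPAT3, an acyltransferase of the first step, 8.11, 11.2 and 11 FPKM at 0 d and 21.9, 19.4 and 30.7 at 6 d. These came to 1.47, limma adjusted p = 2.55e-06, and 1.23, limma adjusted p = 0.0027, with each 6 d library above all of 0 d. The other 12 were not called, and the median of the 15 was -0.04, or 0.09 after rescaling, so the sign of the group's median turns with the scaling.

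In fatty acid synthesis and desaturation, 4 of 14 genes rose and 2 fell. SCD, the desaturase that makes oleate, read 28.3, 30.1 and 22.9 FPKM at 0 d and 204, 237 and 208 at 6 d. It rose by a log2 fold change of 3.0 (95% interval 2.7 to 3.29, limma adjusted p = 1.19e-07), high in all of 6 d. ACACB, the acetyl-CoA carboxylase of the mitochondrial surface, read 0.88, 1.48 and 0.95 FPKM at 0 d and 15.3, 13.6 and 12.5 at 6 d (log2 fold change 3.56, limma adjusted p = 1.81e-07), with no overlap. FADS2, which desaturates linoleate, rose (log2 fold change 1.6, limma adjusted p = 0.00813), and FADS1, its partner in the same pathway, fell from 12.1, 11.4 and 11.9 to 5.64, 5.79 and 5.5 FPKM (log2 fold change -1.05, limma adjusted p = 5.83e-05). The call of FADS1 was lost after rescaling (log2 fold change -0.92, limma adjusted p = 0.000188) and with a pseudocount of 1 FPKM (log2 fold change -0.95, limma adjusted p = 5.42e-05). FASN, the fatty acid synthase, was already abundant at 0 d and was not called, with 1468, 1527 and 1587 FPKM at 0 d and 1757, 1936 and 1794 at 6 d (log2 fold change 0.26, limma adjusted p = 0.0348). ACACA, the cytosolic carboxylase, read 13.8, 15.6 and 13.7 FPKM at 0 d and 15.2, 13.5 and 15.5 at 6 d and overlapped between the days (log2 fold change 0.03, limma adjusted p = 0.798). SREBF1, the factor above both, read 38.3, 35.5 and 42.5 FPKM at 0 d and 27.1, 27.9 and 28.7 at 6 d without a call (log2 fold change -0.47, limma adjusted p = 0.00274).

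Fatty acid uptake and binding gave 2 rises and 0 falls in 14 genes (against 3.39% and 7.97% of all tested), the rises being those of FABP4 and CD36. CD36, the fatty acid translocase, rose from 0.31, 0.31 and 0.30 to 1.35, 2.02 and 1.94 FPKM (log2 fold change 2.18, limma adjusted p = 1.43e-06), higher in every 6 d library while staying low, and 1.08 with a pseudocount of 1 FPKM. LPL, the lipase that frees fatty acids for uptake, read 4.46, 4.43 and 4.7 FPKM at 0 d and 2.81, 3.09 and 3.19 at 6 d and was not called (log2 fold change -0.57, limma adjusted p = 0.0194). Of 12 lipid droplet proteins 3 rose and 1 fell, the rises again against 3.39% of all tested. CAV1, caveolin of the plasma membrane and droplet coat, read 47.7, 42.3 and 44.7 FPKM at 0 d and 91.3, 99.8 and 103 at 6 d (log2 fold change 1.13, limma adjusted p = 6.03e-07), with 6 d high throughout. PLIN4, a perilipin of nascent droplets, rose from 0.13, 0.21 and 0.18 to 1.23, 1.43 and 1.23 FPKM (log2 fold change 2.36, limma adjusted p = 2.12e-06), a call that ended with a pseudocount of 1 FPKM (log2 fold change 0.97, limma adjusted p = 6.19e-06). PLIN2, the droplet coat of most cells, read 129.9, 125 and 135 FPKM at 0 d and 229.9, 249 and 256 at 6 d at a log2 fold change of 0.91, limma adjusted p = 1.77e-06, short of the call, which it reached only after rescaling (log2 fold change 1.05, limma adjusted p = 2.18e-07).

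Lipolysis and fatty acid oxidation held calls in both directions, 4 higher and 3 lower of 16 in lipolysis and 3 higher and 1 lower of 22 in oxidation (against 3.39% and 7.97% of all tested). CPT1A, the gate of fatty acids into mitochondria, was the outlier by level. It read 1332, 1323 and 1395 FPKM at 0 d and 276, 295 and 228 at 6 d. Its log2 fold change of -2.35 (95% interval -2.77 to -1.93, limma adjusted p = 7.46e-06) came with every 0 d library high, and the gene is 1 of the 10 largest losses of FPKM among called mRNAs. ECI1, an isomerase of mitochondrial oxidation, rose from 18.7, 16.2 and 18.7 to 40.7, 41.3 and 37.4 FPKM (log2 fold change 1.15, limma adjusted p = 2.44e-06). In lipolysis the rises were of mRNAs below 1 FPKM in all 6 libraries. NPR1, a receptor of natriuretic peptides, fell from 2.28, 2.61 and 2.7 to 0.27, 0.35 and 0.29 FPKM (log2 fold change -2.71, limma adjusted p = 4.88e-07, and -1.44 with a pseudocount of 1 FPKM), and ADCY7, an adenylyl cyclase, from 2.52, 2.37 and 2.59 to 0.64, 0.59 and 0.56 (log2 fold change -1.9, limma adjusted p = 6.76e-07, and -1.13 with that pseudocount). PNPLA2, the first triglyceride lipase, read 1.55, 1.7 and 1.79 FPKM at 0 d and 2.26, 2.52 and 2.2 at 6 d (log2 fold change 0.45, limma adjusted p = 0.0202) and was not called. Of the 27 genes of mitochondrial respiration 0 were called.

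Of 10 secreted products of fat tissue 5 rose and 1 fell, with a median log2 fold change of 0.91. C1QTNF1, a C1q/TNF-related protein, read 275, 206 and 187 FPKM at 0 d and 2690.2, 1963 and 1079 at 6 d and gained more FPKM than all but 4 of the called mRNAs. It rose by 3.02 (95% interval 2.0 to 4.05, limma adjusted p = 0.000569), unevenly across the 6 d libraries but without overlap. C1QTNF3, another of the family, rose from 4.76, 4.5 and 4.46 to 45.4, 47.6 and 44.4 FPKM (log2 fold change 3.3, limma adjusted p = 3.85e-08). SFRP5, a Wnt-binding adipokine, rose from 0.02, 0.08 and 0.02 to 4.99, 6.18 and 5.02 FPKM (log2 fold change 5.32, limma adjusted p = 6.44e-08, and 2.62 with a pseudocount of 1 FPKM). LEP, leptin, read 2.17, 2.39 and 2.47 FPKM at 0 d and 9.97, 8.6 and 5.5 at 6 d (log2 fold change 1.69, limma adjusted p = 0.00895), higher in all 3 libraries of 6 d. Its call was lost with a pseudocount of 0.01 FPKM (log2 fold change 1.73, limma adjusted p = 0.213).

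Adipogenic transcription factors gave 0 rises and 5 falls in 21 tested. CEBPD read 1055, 1044 and 1189 FPKM at 0 d and 2109, 2221 and 2214 at 6 d. At a log2 fold change of 1.0 (95% interval 0.83 to 1.16, limma adjusted p = 3.56e-06) it was just short of the threshold while all 6 d libraries were high, and it was called after rescaling (log2 fold change 1.13, limma adjusted p = 1.23e-06) and without the third 0 d library (1.06, limma adjusted p = 8.93e-06) or the first of 6 d (1.02, limma adjusted p = 2.75e-05). CEBPB overlapped between the days, with 262, 261 and 309.6 FPKM at 0 d and 314, 339 and 295 at 6 d (log2 fold change 0.19, limma adjusted p = 0.285). ZNF423, a zinc finger factor that commits preadipocytes, read 57.3, 67.8 and 62.8 FPKM at 0 d and 12.5, 13 and 13.8 at 6 d. It fell with a log2 fold change of -2.24, limma adjusted p = 1.97e-06, high in all of 0 d. KLF4, an early activator of CEBPB, fell from 25.9, 21.1 and 29 to 6.75, 9.14 and 6.56 FPKM (log2 fold change -1.75, limma adjusted p = 9.01e-06). KLF2, a repressor of PPARG, fell from 10.8, 11.6 and 12.4 to 2.55, 2.56 and 1.94 (log2 fold change -2.26, limma adjusted p = 2.34e-06). Thermogenic genes gave 0 rises and 4 falls in 9.

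Targets of the glucocorticoid receptor were the group with most rises, 13 of 21, with 2 falls and a median log2 fold change of 1.40. MAOA, which degrades amines, read 282, 265 and 231 FPKM at 0 d and 1476, 1503 and 1502 at 6 d. It rose by 2.53 (95% interval 2.39 to 2.68, limma adjusted p = 4.42e-09), with the 6 d libraries tight and high. DDIT4, an inhibitor of mTOR signalling, read 109, 109 and 123 FPKM at 0 d and 681, 756 and 690.0 at 6 d, and GLUL, glutamine synthetase, 25.8, 23.9 and 25 FPKM at 0 d and 98.7, 117 and 108 at 6 d. Their log2 fold changes were 2.64, limma adjusted p = 7.51e-09, and 2.11, limma adjusted p = 4.91e-08, neither with overlap. TSC22D3, the leucine zipper GILZ, rose from 8.01, 7.96 and 8.42 to 21.4, 18.8 and 19.3 FPKM (log2 fold change 1.27, limma adjusted p = 3.94e-07). DUSP1, a MAP kinase phosphatase, rose from 283, 263 and 299 to 742, 841 and 862 (log2 fold change 1.53, limma adjusted p = 1.34e-07). MT2A, a metallothionein whose reads may be shared with its close copies, rose from 2.48, 2.73 and 3.95 to 42, 50.9 and 43.4 FPKM (log2 fold change 3.87, limma adjusted p = 5.72e-08). FKBP5, a chaperone of the receptor, read 0.50, 0.48 and 0.29 FPKM at 0 d and 9.69, 9.34 and 39.8 at 6 d, and the third 6 d library was far above the others. It was called (log2 fold change 4.91, limma adjusted p = 0.000656), also in each fit without 1 library. CDKN1C, a kinase inhibitor counted among the targets, fell from 37.5, 33.1 and 40.7 to 4.97, 5.44 and 5.14 FPKM (log2 fold change -2.81, limma adjusted p = 5.79e-08). NR3C1, the receptor itself, read 145, 129 and 139 FPKM at 0 d and 115, 86.3 and 89.5 at 6 d (log2 fold change -0.52, limma adjusted p = 0.0134) and was not called.

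Of 23 genes of the cAMP response 1 was called higher and 2 lower, near the 3.39% and 7.97% of all tested mRNAs. PDE7B, a cAMP phosphodiesterase, rose from 9.08, 10.1 and 8.05 to 30.7, 30.2 and 32.5 FPKM (log2 fold change 1.77, limma adjusted p = 7.12e-07), and NR4A3, an early nuclear receptor of cAMP signalling, fell from 19.1, 14.9 and 13.4 to 7.0, 6.13 and 4.48 (log2 fold change -1.42, limma adjusted p = 0.000805). Insulin and IGF signalling had 4 rises and 3 falls in 29, the falls near the 7.97% of all tested and the rises above their 3.39%. IRS2, an adaptor of the insulin receptor, read 5.8, 6.27 and 6.54 FPKM at 0 d and 23.5, 25.9 and 22.1 at 6 d (log2 fold change 1.92, limma adjusted p = 1.56e-07). IRS1, the other main adaptor, read 1.91, 2.23 and 1.98 FPKM at 0 d and 0.66, 0.66 and 0.69 at 6 d (log2 fold change -1.47, limma adjusted p = 9.35e-07). They went opposite ways, each without overlap, although with a pseudocount of 1 FPKM the call of IRS1 ended (log2 fold change -0.86, limma adjusted p = 4.52e-07). IGF2, the fetal growth factor, fell from 569, 615 and 628 to 198, 193 and 291 FPKM (log2 fold change -1.43, limma adjusted p = 0.00585), together with H19, the imprinted RNA beside it (log2 fold change -1.73, limma adjusted p = 1.2e-07), and the imprinted MEST (log2 fold change -1.15, limma adjusted p = 7.67e-06). IGFBP2 and IGFBP3, carriers of IGF, rose (log2 fold change 2.14, limma adjusted p = 3.85e-08, and log2 fold change 1.11, limma adjusted p = 1.48e-06). INSR and IGF1R, the receptors, were not called (log2 fold change -0.52, limma adjusted p = 0.00705, and log2 fold change -0.09, limma adjusted p = 0.417).

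Glycolysis and hypoxia genes leaned up, with 8 of 29 higher, 2 lower and a median log2 fold change of 0.77. CA9, a carbonic anhydrase that exports acid under hypoxia, read 1.17, 0.99 and 1.22 FPKM at 0 d and 59.4, 68.6 and 57.9 at 6 d. Its log2 fold change was 5.66 (95% interval 5.29 to 6.03, limma adjusted p = 9.52e-09), from a low level to a clear one in every library. SLC16A3, the lactate exporter MCT4, rose from 3.62, 4.27 and 3.49 to 49.1, 58.8 and 29.9 FPKM (log2 fold change 3.51, limma adjusted p = 1.09e-06). HIF1A, the oxygen-regulated factor, read 80.1, 76.4 and 75.7 FPKM at 0 d and 222, 247 and 243 at 6 d, and PFKL, a phosphofructokinase, 218, 214 and 223 FPKM at 0 d and 586, 626 and 572 at 6 d. Their rises were 1.61, limma adjusted p = 1.82e-08, and 1.44, limma adjusted p = 1.22e-07, all libraries apart. GAPDH, abundant on both days, was not called, with 9392, 9217 and 10035 FPKM at 0 d and 17763, 18846 and 18109 at 6 d (log2 fold change 0.93, limma adjusted p = 7.22e-07), although its days did not overlap and it was called after rescaling (log2 fold change 1.07, limma adjusted p = 1.47e-07). SLC2A1, the basal glucose carrier, rose from 1.34, 1.28 and 1.47 to 4.56, 5.58 and 4.6 FPKM (log2 fold change 1.77, limma adjusted p = 1.17e-06). SLC2A4, the insulin-responsive carrier, read 1.9, 1.86 and 1.79 FPKM at 0 d and 1.31, 1.28 and 1.28 at 6 d and was not called (log2 fold change -0.49, limma adjusted p = 0.0352).

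Basement membrane genes differed chain by chain, with 8 of 22 higher and 3 lower (against 3.39% and 7.97% of all tested). Their median log2 fold change was -0.11, or 0.02 after rescaling, so its sign turns with the scaling, and 11 were not called. Laminins carried the largest shifts. LAMA3, an alpha chain of epithelial laminins, read 322, 325 and 300.1 FPKM at 0 d and 12, 12.2 and 10.9 at 6 d. The log2 fold change was -4.74 (95% interval -5.48 to -4.0, limma adjusted p = 2.6e-06), high in every 0 d library. LAMB3, a beta chain of epithelial laminins, was low on both days, at 0.82, 0.95 and 0.86 and 0.81, 0.67 and 0.62 FPKM (log2 fold change -0.29, limma adjusted p = 0.2). LAMA4, the alpha chain of mesenchymal laminins, rose from 1696, 1763 and 1597 to 4875, 4950.2 and 4789.8 FPKM (log2 fold change 1.53, limma adjusted p = 2.86e-08). LAMB1 and LAMC1, the chains it pairs with, rose too (log2 fold change 1.23, limma adjusted p = 9.15e-08, and log2 fold change 1.55, limma adjusted p = 0.00122). LAMA5, which forms laminin of mature vessels and epithelia, fell from 405, 406 and 396 to 79.5, 81.1 and 79.7 FPKM (log2 fold change -2.33, limma adjusted p = 5.16e-09). NID2, nidogen, which links laminin to collagen IV, read 369, 370.3 and 365 FPKM at 0 d and 1939, 2013 and 1886 at 6 d and rose by 2.4, limma adjusted p = 3.49e-09. COL4A1 and COL4A2, the main collagen IV chains, rose (log2 fold change 1.83, limma adjusted p = 4.52e-09, and log2 fold change 2.06, limma adjusted p = 1.14e-06). COL15A1, a collagen of the zone beneath, fell from 267, 270.0 and 273 to 28.1, 23.9 and 28.4 FPKM (log2 fold change -3.33, limma adjusted p = 4.42e-09).

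Of the fibrillar collagen group 5 of 23 genes rose and 0 fell. COL3A1, the most abundant collagen, read 105377, 102820.3 and 109333 FPKM at 0 d and 99910.5, 95106 and 93893 at 6 d (log2 fold change -0.14, limma adjusted p = 0.0289), and COL1A1 2949.6, 3146 and 2957 FPKM at 0 d and 3159, 3112 and 2969 at 6 d (log2 fold change 0.03, limma adjusted p = 0.747), neither called. P4HA3, a prolyl hydroxylase of collagen, read 7.8, 7.31 and 7.98 FPKM at 0 d and 101, 117 and 106 at 6 d and rose by 3.79 (95% interval 3.62 to 3.97, limma adjusted p = 8.91e-10), high in every 6 d library. P4HB, its beta subunit, is not among the 23 genes of the group. It rose from 1244, 1221 and 1370.1 to 2624, 2816 and 2683 FPKM (log2 fold change 1.08, limma adjusted p = 2.38e-07). SERPINH1, the collagen chaperone and a member of the group, rose from 262, 262 and 301 to 549, 602 and 568 FPKM (log2 fold change 1.06, limma adjusted p = 0.00127).

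Of 20 proteoglycans 3 rose and 3 fell, and of 26 matrix glycoproteins 9 rose and 7 fell. DCN gained more FPKM than any other called mRNA, from 10152, 9343 and 10352 at 0 d to 30688, 31332 and 32373 at 6 d. Its log2 fold change was 1.66 (95% interval 1.57 to 1.76, limma adjusted p = 4.42e-09), all of 6 d high. THBS1, thrombospondin, an activator of latent TGF-beta, read 3881, 3823 and 3764 FPKM at 0 d and 14184, 13981 and 14436 at 6 d, and FN1, fibronectin, 3413, 3498 and 3282 FPKM at 0 d and 7374, 7309.6 and 7044 at 6 d. They rose by 1.89, limma adjusted p = 1.31e-08, and 1.09, limma adjusted p = 1.34e-07, no library overlapping. TGFBI, an integrin-binding protein induced by TGF-beta, rose from 66, 63.3 and 69.8 to 680.2, 743 and 712 FPKM (log2 fold change 3.42, limma adjusted p = 7.68e-10). On the other side FMOD, fibromodulin, which trims collagen fibrils, fell from 1632, 1608 and 1749 to 439, 390.1 and 435 FPKM (log2 fold change -1.98, limma adjusted p = 2.27e-08). Periostin, POSTN, fell from 59.4, 52.3 and 58.1 to 11.4, 10.5 and 12.7 (log2 fold change -2.29, limma adjusted p = 1.78e-07). CSPG4, the NG2 proteoglycan of pericytes, fell from 199.6, 193 and 211 to 44.2, 49.8 and 47.3 (log2 fold change -2.09, limma adjusted p = 4.28e-07).

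Of 24 genes of elastic fibres and the collagen VI group 9 fell, 2 rose and 13 were not called, with a median log2 fold change of -0.59. EFEMP1, a fibulin, read 78.7, 89.7 and 91.6 FPKM at 0 d and 12.7, 12 and 13.9 at 6 d (log2 fold change -2.74, limma adjusted p = 2.62e-08), and MFAP2, a microfibril protein, 115, 111 and 134 FPKM at 0 d and 27.9, 27.8 and 28.7 at 6 d (log2 fold change -2.08, limma adjusted p = 3.68e-07), with 0 d high in both. LTBP3 and LTBP4, which hold latent TGF-beta on microfibrils, fell (log2 fold change -1.92, limma adjusted p = 2.53e-07, and log2 fold change -2.28, limma adjusted p = 1.26e-07). MFAP5, a microfibril protein of progenitors, went the other way, from 17.5, 18.4 and 19.1 to 103, 104 and 111 FPKM (log2 fold change 2.53, limma adjusted p = 1.01e-08). ELN, elastin, read 8852, 9014 and 9560.2 FPKM at 0 d and 5153, 5049 and 5318 at 6 d and was not called (log2 fold change -0.82, limma adjusted p = 0.00078).

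Proteases and integrins were exchanged within their families, 7 rises and 7 falls in 25 proteases and inhibitors, and 3 rises and 6 falls in 17 integrins. MMP2, gelatinase A, rose from 891, 902 and 942 to 2142, 2094 and 2049 FPKM (log2 fold change 1.2, limma adjusted p = 1.6e-07). By contrast MMP14, the membrane protease that activates it, fell from 605, 626 and 638 to 244, 248 and 246 (log2 fold change -1.34, limma adjusted p = 1.97e-06). PLAT, a protease that activates plasminogen, fell from 133, 131 and 145 to 47.2, 44.9 and 42.8 FPKM (log2 fold change -1.6, limma adjusted p = 1.53e-06). HTRA3, a secreted serine protease not among the 25 counted, fell from 1104, 1134 and 1204 to 238, 223 and 233 FPKM (log2 fold change -2.31, limma adjusted p = 8.23e-09). ITGA5, the fibronectin receptor chain, read 161, 156 and 169 FPKM at 0 d and 455, 511 and 481 at 6 d, and ITGA8, which binds nephronectin and fibronectin, 2.88, 2.53 and 2.36 FPKM at 0 d and 26.1, 25.8 and 25.8 at 6 d. Both rose (1.57, limma adjusted p = 5.56e-08, and 3.28, limma adjusted p = 2.82e-09) with the libraries apart. ITGA7, the laminin receptor chain of muscle, fell from 124, 121 and 128 to 40.1, 39.2 and 40.6 FPKM (log2 fold change -1.63, limma adjusted p = 1.56e-08). ITGA4, which binds VCAM1, fell from 18.2, 15.5 and 14 to 2.89, 3.46 and 2.65 (log2 fold change -2.37, limma adjusted p = 4.36e-06).

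Contractile genes of the smooth muscle type rose in part, 5 of 25 with 1 fall. ACTG2, the enteric smooth muscle actin, read 189, 191 and 203 FPKM at 0 d and 1370.0, 1468 and 1453 at 6 d. The rise was 2.88 on the log2 scale (95% interval 2.68 to 3.09, limma adjusted p = 1.67e-08), high in all of 6 d. CNN1, calponin, rose from 11.5, 10.2 and 13.7 to 42.3, 51.9 and 48.3 FPKM (log2 fold change 2.0, limma adjusted p = 7.9e-06). Vinculin of focal adhesions, VCL, rose from 199.98, 208 and 199 to 432, 458 and 447 (log2 fold change 1.14, limma adjusted p = 4.88e-07). ACTA2, the vascular smooth muscle actin, was high on both days, with 1642, 1674 and 1776 FPKM at 0 d and 1504, 1629 and 1617 at 6 d, and was not called (log2 fold change -0.10, limma adjusted p = 0.301). Reads that fit both actins equally well could not be checked in the deposited values.

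**Figure D3:**
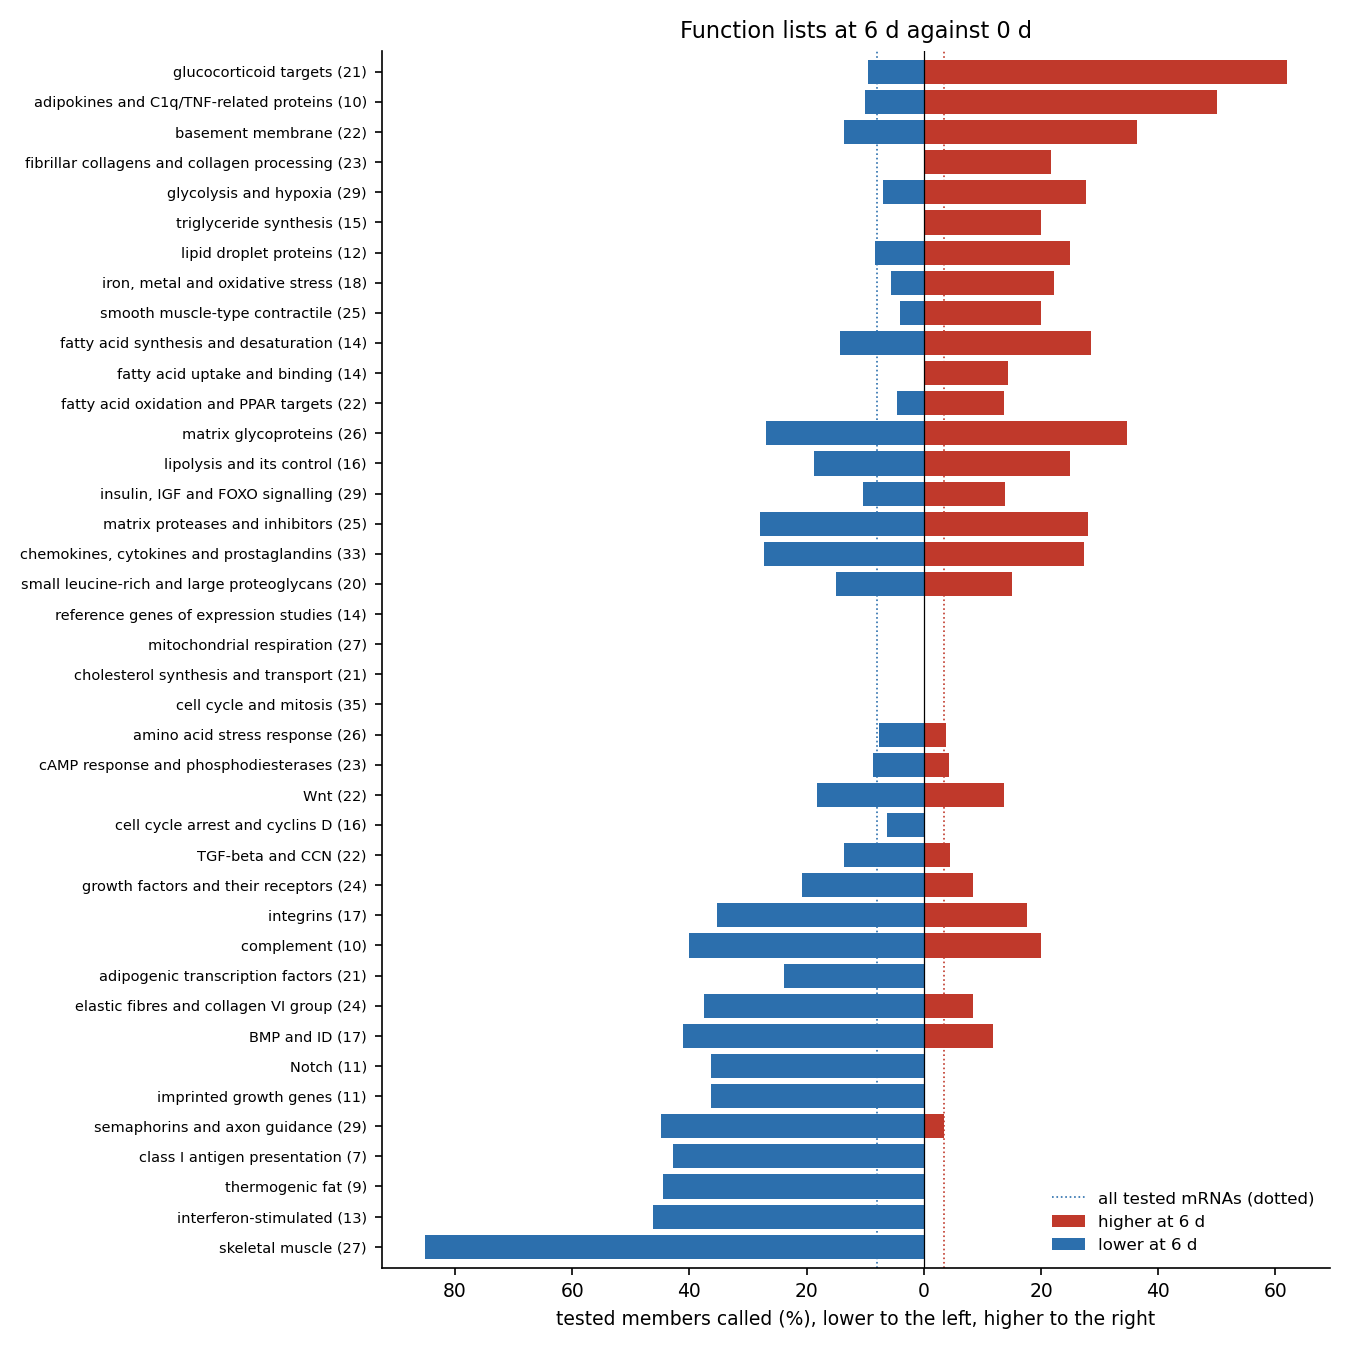
Members of each function list called higher (right) and lower (left) at 6 d against 0 d, as a percentage of the members tested. The number tested is given beside each list.

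Extracellular signals of mesenchymal cells were called both ways. In the BMP group 7 of 17 fell and 2 rose (against 7.97% and 3.39% of all tested). GREM1, the BMP antagonist gremlin, read 30.3, 25.6 and 26.6 FPKM at 0 d and 4.92, 4.24 and 2.07 at 6 d (log2 fold change -2.93, limma adjusted p = 1.44e-05). The antagonist chordin, CHRD, read 16.6, 17.9 and 20.3 FPKM at 0 d and 2.17, 2.14 and 2.7 at 6 d (log2 fold change -2.92, limma adjusted p = 7.07e-07), so in both every 0 d library was above every 6 d library. BMP4, a ligand they bind, rose from 2.17, 2.19 and 2.6 to 7.79, 7.98 and 7.7 FPKM (log2 fold change 1.72, limma adjusted p = 0.000173), and BMP6, another ligand, fell from 15.3, 16 and 14.9 to 2.9, 2.34 and 3.02 (log2 fold change -2.45, limma adjusted p = 1.02e-05). The TGF-beta and CCN group had 3 falls and 1 rise in 22. TGFBR3, the coreceptor betaglycan, fell from 192, 193 and 173 to 49, 33.9 and 32.2 FPKM (log2 fold change -2.3, limma adjusted p = 5.19e-06). WISP2 (CCN5), a secreted protein of preadipocytes, read 325, 334 and 345 FPKM at 0 d and 40.4, 36.4 and 42.5 at 6 d (log2 fold change -3.07, limma adjusted p = 0.00853), and NOV (CCN3), its relative, 1392, 1314 and 1379 FPKM at 0 d and 592, 568 and 624 at 6 d (log2 fold change -1.2, limma adjusted p = 6.76e-07), with the days apart. The call of WISP2 was lost with a pseudocount of 0.01 FPKM (log2 fold change -3.08, limma adjusted p = 0.129). CTGF (CCN2), a further member, read 2500.4, 2345 and 2463 FPKM at 0 d and 1581, 1696 and 1769 at 6 d and was not called (log2 fold change -0.54, limma adjusted p = 6.45e-05).

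Of 22 Wnt genes 3 rose and 4 fell (against 3.39% and 7.97% of all tested). SFRP4, a Wnt antagonist of mesenchymal cells, read 574, 592 and 647 FPKM at 0 d and 1794, 1718 and 1621 at 6 d and rose (log2 fold change 1.5, limma adjusted p = 8.36e-08). Its relative SFRP1 fell from 8.6, 10.4 and 8.66 to 2.47, 3.21 and 2.2 FPKM (log2 fold change -1.79, limma adjusted p = 3.18e-06). DKK1, which blocks Wnt coreceptors, was listed at 0 in all of 0 d and read 1.53, 2.12 and 2.08 FPKM at 6 d (limma adjusted p = 5.56e-08). Of 24 growth factors and their receptors 5 fell and 2 rose. PDGFRB, of pericytes and fibroblasts, read 594, 594 and 571 FPKM at 0 d and 218, 206 and 211 at 6 d (log2 fold change -1.47, limma adjusted p = 4.69e-08). FGFR4, of myoblasts, read 86.6, 93.7 and 104 FPKM at 0 d and 18.6, 18.5 and 22.6 at 6 d (log2 fold change -2.25, limma adjusted p = 4.17e-06), and neither had overlap. FGF10, a growth factor that fat progenitors secrete, rose from 3.68, 3.65 and 3.48 to 19.4, 24.5 and 24.6 FPKM (log2 fold change 2.62, limma adjusted p = 1.45e-07).

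Notch and guidance genes leaned down, 4 of 11 and 13 of 29 lower, against 0 and 1 higher. JAG1, a Notch ligand, read 350.1, 339.8 and 337 FPKM at 0 d and 83.9, 84.9 and 83.5 at 6 d, a log2 fold change of -2.02 (95% interval -2.14 to -1.91, limma adjusted p = 3.6e-09), high in all of 0 d. NOTCH3, a receptor of mural cells, fell from 46.5, 47.4 and 46 to 18.9, 17.4 and 18.1 FPKM (log2 fold change -1.36, limma adjusted p = 3.04e-07). SEMA3D and SEMA3C, secreted guidance cues, fell from 65, 67.4 and 60.9 to 6.67, 5.96 and 7.32 and from 108, 102 and 96.8 to 27.4, 26.7 and 29.6 FPKM (log2 fold change -3.26, limma adjusted p = 1.35e-07, and log2 fold change -1.87, limma adjusted p = 8.24e-08). SLIT2, a cue of migrating cells, fell from 9.84, 10.2 and 9.89 to 0.55, 0.62 and 0.64 FPKM (log2 fold change -3.84, limma adjusted p = 4.88e-07), as did EPHB2, an ephrin receptor (log2 fold change -3.95, limma adjusted p = 2.21e-07).

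Of 33 chemokines, cytokines and prostaglandin genes 9 rose and 9 fell. CXCL12, which holds stem cells in their niche, read 10.5, 9.97 and 9.88 FPKM at 0 d and 84.6, 82.3 and 93.5 at 6 d. It rose by 3.09 (95% interval 2.96 to 3.22, limma adjusted p = 7.68e-10), high in all of 6 d. CXCL5, a neutrophil attractant, read 87.7, 74.7 and 76 FPKM at 0 d and 10.5, 8.02 and 10.8 at 6 d, and CXCL8, another, 3.06, 2.34 and 2.77 FPKM at 0 d and 0.43, 0.44 and 0.53 at 6 d. Both fell, with log2 fold changes of -3.02, limma adjusted p = 1.32e-07, and -2.31, limma adjusted p = 1.01e-06. CXCL2, CXCL3 and GRO1, close copies of each other whose reads may be shared, were lower too, at -3.51, limma adjusted p = 4.88e-08, -1.42, limma adjusted p = 1.78e-05, and -2.26, limma adjusted p = 2.11e-06. GRO1 is not among the 33 counted. With a pseudocount of 1 FPKM the call of CXCL3 was lost (log2 fold change -0.91, limma adjusted p = 2.07e-05), and CXCL2 and CXCL8 came to -1.24 and -1.34. CCL2, a monocyte attractant, rose from 6.03, 5.06 and 6.02 to 24.4, 19.8 and 24.8 FPKM (log2 fold change 1.99, limma adjusted p = 5.71e-06). PTGES and PTGDS, which make prostaglandins E and D, fell from 22.9, 22.1 and 24.8 to 3.72, 2.14 and 3.21 and from 30.4, 25.2 and 27.8 to 6.08, 5.09 and 6.18 FPKM (log2 fold change -2.94, limma adjusted p = 5.92e-07, and log2 fold change -2.25, limma adjusted p = 1.75e-07).

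Interferon-stimulated genes were low on both days, with 6 of 13 lower and 0 higher. IRF7, a factor of the interferon response, fell from 3.35, 3.04 and 3.47 to 0.67, 0.64 and 0.27 FPKM (log2 fold change -2.51, limma adjusted p = 6.82e-05, and -1.5 with a pseudocount of 1 FPKM), and IRF1, another, from 6.5, 4.12 and 6.66 to 1.09, 1.03 and 1.23 (log2 fold change -2.24, limma adjusted p = 0.000309). In class I antigen presentation 3 of 7 fell and 0 rose. PSMB8, a subunit of the immunoproteasome, read 5.12, 5.14 and 4.67 FPKM at 0 d and 0.67, 0.48 and 0.80 at 6 d, and TAP1, the peptide transporter beside it, 12.5, 13.2 and 14.5 FPKM at 0 d and 2.94, 2.71 and 5.03 at 6 d. Their log2 fold changes were -2.78, limma adjusted p = 7.66e-07, and -1.93, limma adjusted p = 0.00014, high in all of 0 d. Of 10 complement genes 2 rose and 4 fell. MASP1, a lectin pathway protease, rose from 106, 106 and 119 to 487, 444 and 471 FPKM (log2 fold change 2.08, limma adjusted p = 1.1e-07). C1S, of the classical pathway, fell from 57.1, 55.2 and 59.7 to 19.2, 16.7 and 19.6 (log2 fold change -1.63, limma adjusted p = 7.32e-07).

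Several functions showed no call at all. Of 35 genes of the cell cycle and mitosis 0 were called. MKI67, the antigen of cycling cells, read 11.7, 12.2 and 11.3 FPKM at 0 d and 9.51, 11.9 and 10.3 at 6 d (log2 fold change -0.15, limma adjusted p = 0.239), and CCNB1, cyclin B, 9.79, 8.63 and 10.0 FPKM at 0 d and 8.8, 10.2 and 10.4 at 6 d (log2 fold change 0.05, limma adjusted p = 0.816), both overlapping between the days. In cholesterol synthesis and transport 0 of 21 were called and the median log2 fold change was 0.36. Among antioxidant and metal genes GPX3, a secreted glutathione peroxidase, rose from 11.8, 12.3 and 14.9 to 65.4, 69.5 and 70.7 FPKM (log2 fold change 2.4, limma adjusted p = 1.31e-07), and CAT, catalase, fell from 39.1, 39.9 and 39.2 to 16.1, 18.1 and 19.2 (log2 fold change -1.15, limma adjusted p = 7.74e-07). Of 14 reference genes often used in expression studies 0 were called, with a median of -0.04, or 0.10 after rescaling. They include GAPDH, which was higher in every 6 d library (log2 fold change 0.93, limma adjusted p = 7.22e-07). It was called after rescaling (log2 fold change 1.07, limma adjusted p = 1.47e-07).

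**Figure D4:**
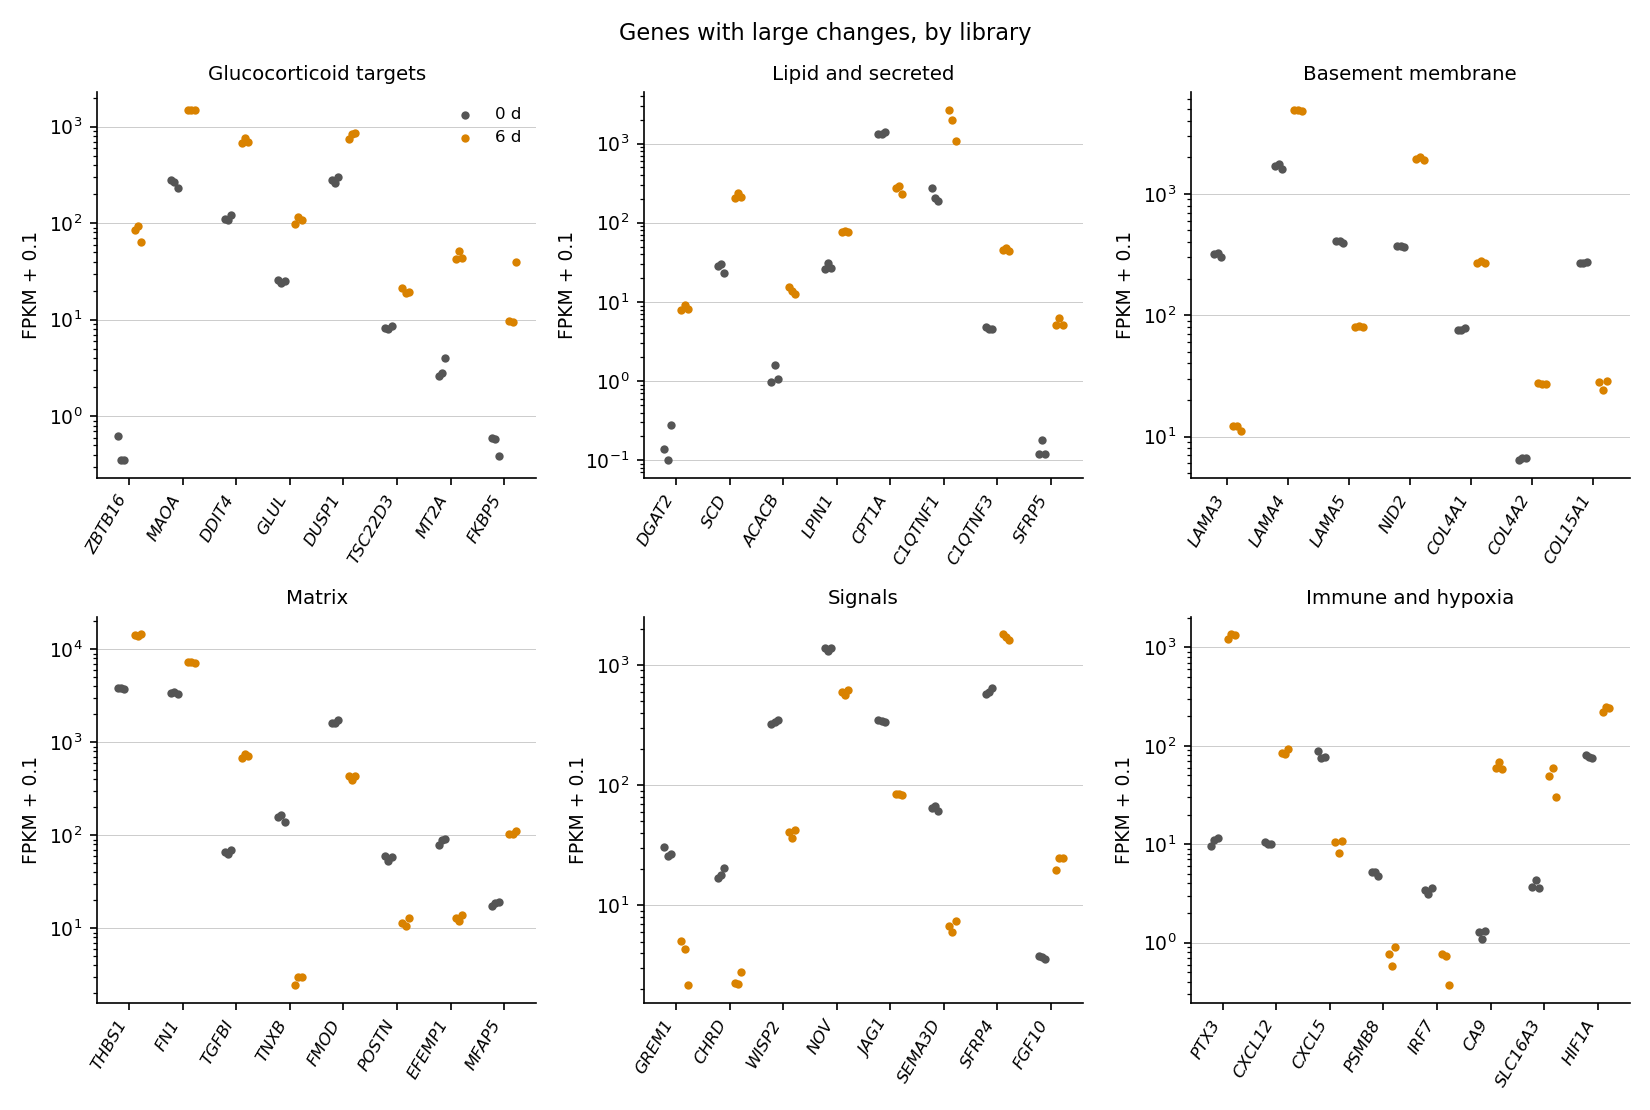
FPKM of genes with large changes between 0 d and 6 d, grouped by function. Each point is 1 library.

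The direct tests of 6 d against its neighbours in time, 9 d against 6 d with 683 mRNAs called (4.43%) and 6 d against 3 d with 2939 (19.1%), use the same 6 d libraries, so values are only given side by side. ZBTB16 read 355, 330.0 and 162 FPKM in the 3 d libraries, then 84.4, 93 and 63.3 in those of 6 d, then 15.6, 9.89 and 11.5 in those of 9 d. It fell at 6 d against 3 d (-1.75, limma adjusted p = 0.00172) and at 9 d against 6 d (-2.7, limma adjusted p = 0.000384). GLUL read 413, 455 and 453 at 3 d and 40.9, 37.4 and 43.8 at 9 d and fell at both steps (-2.03, limma adjusted p = 2.42e-08, then -1.4, limma adjusted p = 2.58e-06), so its 6 d level lies between a higher 3 d and a lower 9 d. FABP4 followed the same order, 94.7, 86.2 and 92.3 at 3 d and 7.59, 8.84 and 10.8 at 9 d (6 d against 3 d -1.78, limma adjusted p = 1.13e-06, 9 d against 6 d -1.54, limma adjusted p = 1.8e-05). PTX3 was as high at 3 d, 1254, 1269.8 and 1240.3 FPKM, and fell to 126, 105 and 98.1 at 9 d (9 d against 6 d -3.57, limma adjusted p = 6.47e-08).

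Other genes took other courses. ACTG2 read 15, 19.2 and 18.6 FPKM at 3 d and 214, 208 and 236 at 9 d, and thus rose from 3 d (6.34, limma adjusted p = 5.7e-11) and fell to 9 d (-2.71, limma adjusted p = 1.52e-07). NTS read 7.41, 8.33 and 6.87 at 3 d and 30.6, 39 and 30.1 at 9 d, again below its 6 d level (3.67, limma adjusted p = 2.33e-08, then -1.55, limma adjusted p = 5.4e-05). Of the genes low at 6 d, CXCL5 read 159, 136 and 152 at 3 d and 46.8, 61.3 and 53.3 at 9 d, so that 6 d was the lowest of these days (-3.92, limma adjusted p = 9.46e-09, then 2.45, limma adjusted p = 1.94e-06). WISP2 stood at 0.97, 0 and 0 at 3 d and 247, 262 and 254 at 9 d, with 6 d between the very low 3 d and the higher 9 d (7.5, limma adjusted p = 1.67e-05, then 2.68, limma adjusted p = 0.028). CPT1A was still at 1331, 1409.5 and 1413 at 3 d and read 374, 234 and 434 at 9 d, a fall that came between 3 d and 6 d (-2.39, limma adjusted p = 3.57e-06) with no call after it (0.34, limma adjusted p = 0.253).

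**Figure D5:**
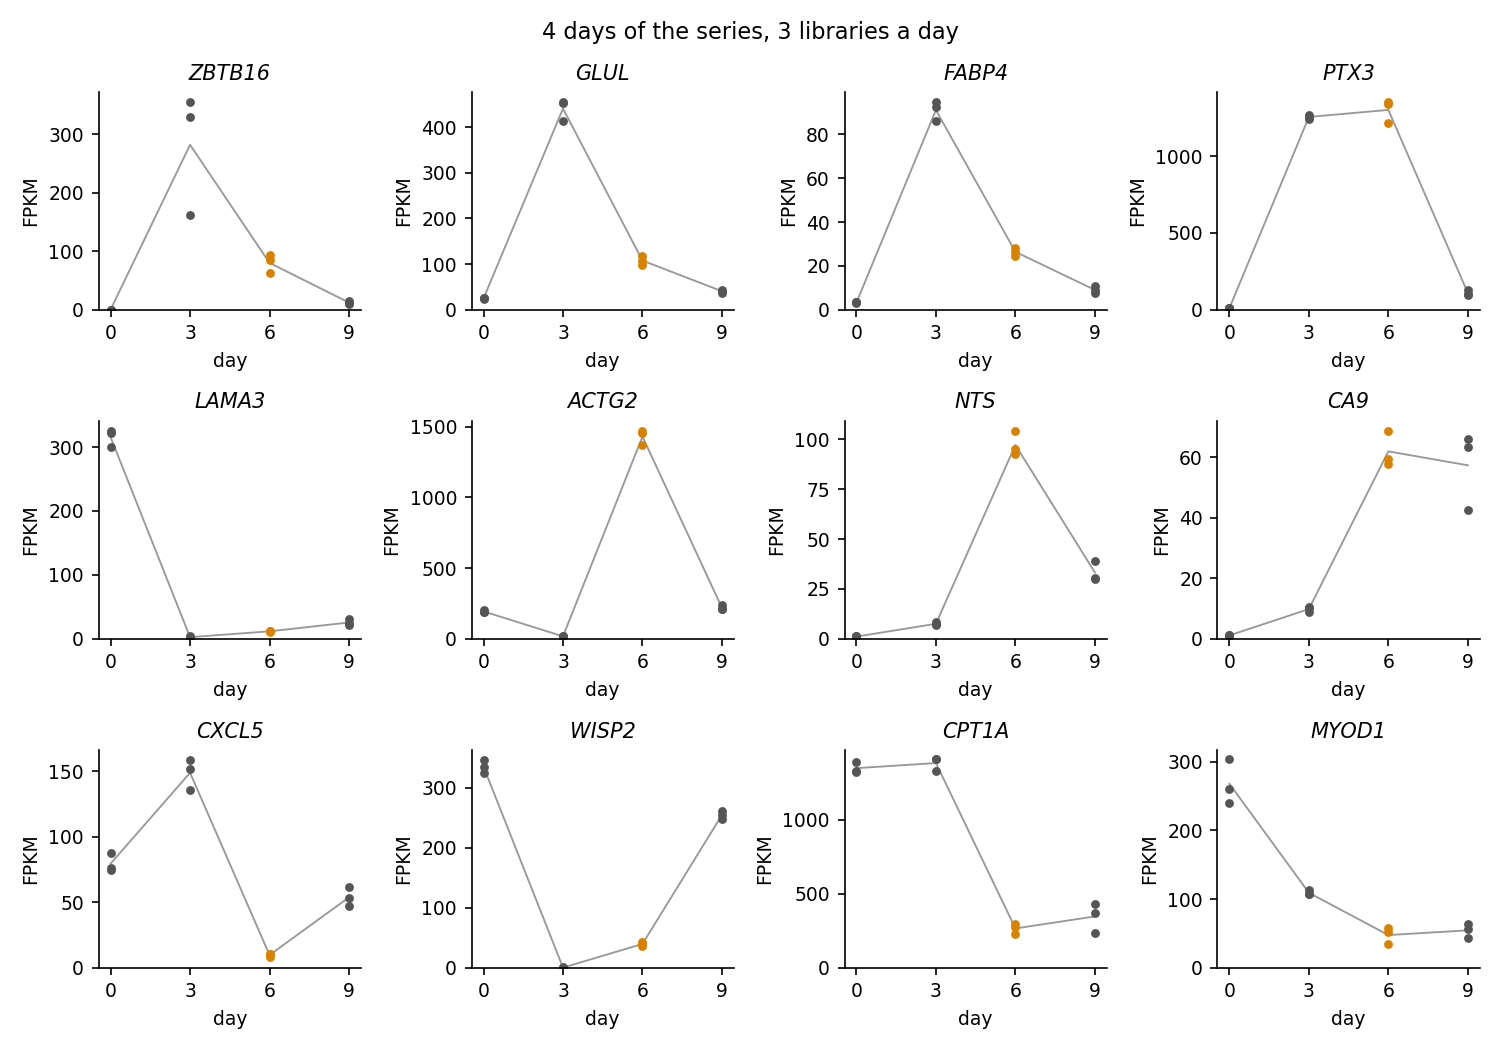
FPKM of 12 genes on the 4 days of the series, 3 libraries a day. The 6 d libraries are those of the main comparison.

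Set against uninduced cells, the 6 d culture had 13 of 21 glucocorticoid targets called higher and 2 lower, 4 days after the steroid left the medium, and 23 of 27 muscle genes called lower. Rises were called in 8 of 29 glycolysis and hypoxia genes and in 5 of 10 secreted products of fat tissue, while basement membrane genes were called both ways. The fat-cell programme is present in single steps, DGAT2, SCD, ACACB, FABP4 and CD36, while of 21 adipogenic factors 5 were called lower (against 7.97% of all tested), 0 higher, which is near the 3.39% of all tested, and CEBPD was just short of the threshold. Values are of mRNA only, in 1 culture system. Lipid, which the study measured in its cultures by stain and assay, and protein were not analysed here.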

How the data were processed

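RNA sequencing of mRNA was deposited for 12 libraries of cattle intramuscular preadipocytes, 3 each at 0, 3, 6 and 9 d, and the 0 d and 6 d libraries are compared. The authors deposited mRNA levels as FPKM with 2 decimals, per gene and library. Per the labels reads were processed with Bowtie 0.12.2, HISAT2 2.0 and StringTie 1.3.0 and a mouse build, while the study's methods name a cattle genome, so the exact mapping is not known. The labels describe poly(A) selection and the methods depletion of ribosomal RNA in strand-specific libraries, and antisense reads could not be told apart in the deposited values. Labels and methods also differ in the doses of dexamethasone and insulin. Depth was read from the circular RNA table, where the deposited count of back-spliced reads and the deposited signal (SRPBM), which the authors made by scaling that count to the mapped reads, give the reads behind each library. These were 63609569, 58912839 and 71169889 reads at 0 d and 53304904, 57431121 and 62854104 at 6 d. Some of these back-calculated counts are lower than the depth stated in the study, for a reason not given in the sources used here. FPKM do not state the counts behind a value, so the precision of a low value is seen only in the spread of the 3 libraries. The number of value columns of the used tables left out is 0. The long noncoding RNA and microRNA tables were not used, as the comparison is of mRNA.

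FPKM with 0.1 added were put on the log2 scale for the 15402 mRNAs with a mean of at least 0.1 FPKM over 12 libraries, and fitted with limma 3.58.1 (R 4.3.3, prior variance with a trend) with a mean for each day. The study used edgeR, which needs counts, so limma took its place at the same thresholds. Contrasts were 6 d against 0 d, 9 d against 6 d and 6 d against 3 d, with Benjamini-Hochberg adjustment over all tested mRNAs. Calls need an adjusted p under 0.05 and a log2 fold change over 1 either way. Tables come from Python 3.11.15 (pandas 2.3.3, NumPy 2.4.6) and figures from Matplotlib 3.10.9. The fit was tested on simulated data.

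Some genes named are from the 15 largest rises and 15 largest falls among called genes. These had no overlap, a gene symbol (LOC names were left out) and a mean of at least 1 FPKM on 1 of the days. Others are from the 10 largest gains and losses of FPKM among called genes. Further ones are called and abundant members of 40 function lists, or come from 10 lists of cell type markers. The lists and members were chosen with earlier results of these data known, so no list was tested and counts are read against the shares called of all tested mRNAs. Genes without a value in the table were not analysed here, and some genes that meet these rules are not reported here. Alternatives tried were pseudocounts of 1 and 0.01 FPKM, no filter, a mean of at least 1 FPKM, rescaling by median ratios, a fit of only the 6 libraries, a replicate block, no trend and leaving out each of the 6 libraries.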

Additional observations from a re-analysis of the deposited data

How the results depend on the processing

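The count of called mRNAs at 6 d against 0 d was 1749 and depended most on how values near 0 are treated. With a pseudocount of 1 FPKM in place of 0.1 it was 967, of which 318 were higher and 649 lower, and with 0.01 FPKM it was 1918. With only mRNAs of a mean of at least 1 FPKM it was 1169, 384 higher and 785 lower, and with no filter 1810. Rescaling by the median ratio gave 1607, with more rises (616) and fewer falls (991). The fit of only the 6 libraries gave 1694 and the prior without a trend 1743. The labels do not say whether equal replicate numbers link libraries of different days. With a replicate block the count was 1746. Leaving out each of the 6 libraries in turn gave 1689 to 1750 calls, 495 to 542 higher and 1173 to 1239 lower. For 9 d against 6 d rescaling gave 689 calls in place of 683, and for 6 d against 3 d 2924 in place of 2939.

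Among the 182 named mRNAs tested, the direction of a log2 fold change turned only for genes near 0 that were not called. Rescaling turned IGF1R to 0.04, COL3A1 to 0.0 and ACTA2 to 0.04. Leaving out the second library of 0 d turned PDGFRA to -0.03 (its range over the 6 fits was -0.03 to 0.06) and CCNB1 to -0.02 (-0.02 to 0.12), and leaving out the third of 6 d turned ACACA to -0.0 (0.0 to 0.1 otherwise). Over the 8 processing alternatives calls named in the text were kept except where the text gives the value without the call, or where the gene was not tested at a mean of at least 1 FPKM, which left out CD34, ADIPOQ, PLIN4, CXCL2, NPR1, ADCY7, COL21A1, BMP5 and LRRC1. Results of the function and marker lists moved too. Of the list counts, 27 moved and 373 stayed the same over the processing alternatives, and 3 and 297 over the fits without 1 library. Of the list medians, 98 moved and 302 stayed the same over the processing alternatives, and 76 and 224 over the fits without 1 library. Some medians near 0 changed sign, as given above. The planned search for promoter motifs was not run, as no sequence was used here.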

Other observations

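Neighbouring genes moved together in places. In the order of the cattle annotation, which holds 13392 of the tested mRNAs (86.9%), 25 runs of at least 3 neighbours were called the same way, 4 of them higher and 21 lower, and how many such runs a random order would give was not tested. The longest was a run of 6 falls, DST, COL21A1, BMP5, MLIP, LRRC1 and KLHL31. DST, a linker of the cytoskeleton, fell from 908, 1087 and 755 to 389.9, 346 and 320.5 FPKM (log2 fold change -1.37, limma adjusted p = 5.72e-05), and KLHL31, a kelch protein of muscle, from 8.76, 7.02 and 8.39 to 1.42, 1.63 and 1.78 (log2 fold change -2.25, limma adjusted p = 0.00166). COL21A1, BMP5 and LRRC1 were below 1 FPKM in all 6 libraries, and with a pseudocount of 1 FPKM their calls were lost (-0.59, limma adjusted p = 2.83e-06, -0.47, limma adjusted p = 4.35e-06, and -0.62, limma adjusted p = 2.89e-05). The call of MLIP (log2 fold change -1.45, limma adjusted p = 0.0192) was kept in 3 of the 6 fits that leave out 1 library and lost in the fit of only the 6 libraries (-1.45, limma adjusted p = 0.0585). A run of 5 rises held MYO16, IRS2, COL4A1, COL4A2 and RAB20. MYO16, a myosin, went from 0.49, 0.15 and 0.36 to 1.82, 1.75 and 1.48 FPKM (log2 fold change 2.12, limma adjusted p = 0.000152, and 1.01 with a pseudocount of 1 FPKM). RAB20, a GTPase of endosomes, went from 14.3, 33.1 and 13.9 to 38.6, 51 and 42.2 (log2 fold change 1.21, limma adjusted p = 0.0103), a call lost in the fit of only the 6 libraries (1.21, limma adjusted p = 0.052). FKBP5 lay in a run of 3 rises with ARMC12 and SRPK1. SRPK1, a kinase of splicing factors, rose from 32.9, 33.4 and 33.5 to 147, 151 and 153 FPKM (log2 fold change 2.17, limma adjusted p = 0.0162).

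Some changes had no place among the functions of the report. KIF1A, a motor of axonal transport, read 58.3, 56 and 55.2 FPKM at 0 d and 4.57, 3.56 and 4.1 at 6 d (log2 fold change -3.77, limma adjusted p = 1.09e-06), high in every 0 d library. PLXDC1, a receptor first found on tumour vessels, fell from 7.43, 7.13 and 7.71 to 0.13, 0.22 and 0.30 FPKM (log2 fold change -4.61, limma adjusted p = 1.78e-07, and -2.79 with a pseudocount of 1 FPKM). TLE2, a corepressor of the Groucho family, fell from 81.2, 72.4 and 63.5 to 7.99, 2.25 and 4.06 (log2 fold change -4.07, limma adjusted p = 3.24e-05). PTPRQ, a phosphatase of hair cells that also acts on lipids, rose from 0.40, 0.30 and 0.27 to 11.3, 11.9 and 13.5 FPKM (log2 fold change 4.87, limma adjusted p = 4.52e-09), and PCDH18, a protocadherin, from 463, 517 and 507 to 1687, 1795 and 1733 (log2 fold change 1.81, limma adjusted p = 3.43e-07). PCDH18 was among the 10 largest gains of FPKM of called mRNAs.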
